A study of Mus musculus with 6 samples.

Results

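The subunits of the clathrin adaptor AP-1 were examined in mouse liver with and without hepatic SIRT1, a deacetylase that uses NAD. The genes were Ap1s1, Ap1s2 and Ap1s3 (small sigma subunits), Ap1m1 and Ap1m2 (medium mu subunits), Ap1b1 (large beta subunit), and Ap1g1 and Ap1g2 (large gamma subunits). All probes carrying one of these names on the arrays were taken, which gave 8 of 28786 gene names and 14 of 41174 probes. Ap1s3 was chosen because it was already known to be higher in the knockout arrays, so its difference is described here and not tested. The other 7 genes were chosen by name as parts of the same complex.

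AP-1 assembles from a gamma, a beta, a mu and a sigma subunit on membranes of the trans-Golgi network and of endosomes, where it binds the GTPase ARF1, picks up cargo and recruits clathrin. The mu subunit reads tyrosine-based sorting signals in cargo tails, and gamma with sigma reads signals built on a pair of leucines. The sigma, mu and gamma chains each come in alternative forms encoded by separate genes. In liver cells the pathway carries lysosomal enzyme receptors, the protease furin and copper-transporting ATPases between the Golgi and endosomes.

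The study compared Lox control livers with livers lacking SIRT1 in the liver only (SIRT1 LKO), from male mice aged 10 weeks on a 95% C57BL/6 background. Animals ate chow at will, were killed at 4 pm, and the RNA of 2 animals went into each pool, with 3 pools per genotype. The labels name neither the exons removed nor the promoter that drove the recombinase. RNA (500 ng per pool, Cy3 dye) was hybridised to 6 one-colour Agilent whole mouse arrays, so each value is one pool on one array. The pools of one group hold different animals. A limma p-value sets the difference between genotypes against the spread of the 3 arrays within each group, moderated over all genes.

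Each level is the log2 intensity of a probe minus the 75th percentile of its own array, and differences are SIRT1 LKO minus control on that log2 scale. A level says nothing about one probe against another, because probes bind with different strength. Sirt1 itself stood at 0.29, 0.37 and 0.24 in control pools 1, 2 and 3 and at -0.07, 0.09 and 0.16 in the LKO pools. Its difference of -0.24 (SE 0.10, limma adjusted p = 0.237) did not pass the threshold of 0.05, and a second Sirt1 probe, above background on every array, differed by -0.02. Because the removed exons are not named, these probes do not check the labels. The 75th percentile intensity lay between 1005 and 1289, and 52.2% to 66.3% of probes were well above background. The 4 hepatocyte markers on the array were above background on all 6 arrays, with a summed linear level of 853 to 997 times the 75th percentile in the controls and 866 to 1080 in the LKO pools. The controls shared a slide, LKO pools 1 and 2 a second, and LKO pool 3 lay on another. No slide held both genotypes, so slide and genotype cannot be told apart. The spread between the controls includes no difference between slides. For LKO pool 3 the deposited value table and the scanner file differed: 0.858% of probes were within 1% of each other, against 99.8% to 99.9% in the other pools. Results below come from the scanner files, and are given again without LKO pool 3 and with its value-table column.

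The array carried 2 probes for Ap1s3 and 3 for Ap1s2, the genes whose probes differed most in what they reported. The first 30 bases of both Ap1s3 probes and of the 2 tested Ap1s2 probes are shown 5′ to 3′ because the sequence bears on which stretch of each transcript was read. Capitals mark the first stop codon of each reading frame that fell in these bases.
Ap1s3 probe 1: cTAAatgtactacttacattctggataatt
Ap1s3 probe 2: actTAAagggattctgtgtTAGcTAGcaaa
Ap1s2 probe 1: TGAagctgtaTAAatgcgcggcatcacttt
Ap1s2 probe 2: cactacatgttgttcaccTGAttttaatgt
Over its whole 60 bases, each Ap1s3 probe and Ap1s2 probe 1 held a stop codon in all 3 frames, whereas Ap1s2 probe 2 had a frame without one. Of all 14 probes, 5 held a stop in every frame. An open frame does not show that a probe lies in coding sequence, and the exon of each probe was not determined here. The 2 Ap1s3 probes had the same base composition, 35.0% G and C. The 13 probes of the 7 genes whose strand was given by RefSeq (GRCm38.p6) all lay on that strand.

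Ap1s3, the third sigma chain, was higher in all 3 SIRT1 LKO pools. Probe 1 (mm7, chr1:79827828-79828204, minus strand, coordinates that span 377 bases for a 60-base probe) stood at -4.79, -5.19 and -5.03 in control pools 1, 2 and 3. It stood at -3.39, -3.38 and -3.31 in LKO pools 1, 2 and 3. The groups did not overlap, and the LKO pools lay within 0.08 of each other. The scanner called the probe well above background in 1 of 3 control pools (pool 1) and in all 3 LKO pools. As linear intensity the control spots read 37.3, 27.4 and 32.4, and the LKO spots 96.1, 97.6 and 130.0, on arrays whose 75th percentiles lay between 1005 and 1289. The signal was therefore dim in both groups, and in the controls at the edge of detection.

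Ap1s3 probe 1 averaged -5.0 ± 0.20 in the controls against -3.36 ± 0.05 in the LKO pools (SD, n = 3 each). The difference was 1.64 (SE 0.12, 95% interval 1.35 to 1.94), or 3.12-fold. These figures describe the spread between these pools only. The control mean behind them includes 2 pools not well above background, so the fold depends on how background was handled. With LKO pool 3 taken from the value table, where it stood at -3.58, the difference was 1.55, and without LKO pool 3 it was 1.62. Leaving out any one pool gave 1.55 to 1.75. The slide as a random block gave 1.65, but no slide held both genotypes, so this cannot remove a slide effect. These settings use the same background-subtracted intensities by which Ap1s3 was chosen. With another background correction, normexp, the difference was 0.88 (SE 0.41). The offset of 50 used there is larger than the processed intensity of this probe in every control pool. In a whole liver, more cells of a type and more RNA per cell cannot be told apart, here or for any gene below.

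Ap1s3 probe 2 gave no usable level. At chr1:79829739-79829798 (minus strand) it stood at -7.64, -6.68 and -7.30 in the controls and at -6.38, -6.55 and -6.33 in the LKO pools. It was not well above background on any array. The LKO values lay above the controls and the means differed by 0.79, but both groups are below detection and no fold is given. The higher Ap1s3 signal therefore rests on a single probe.

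**Figure D1:**
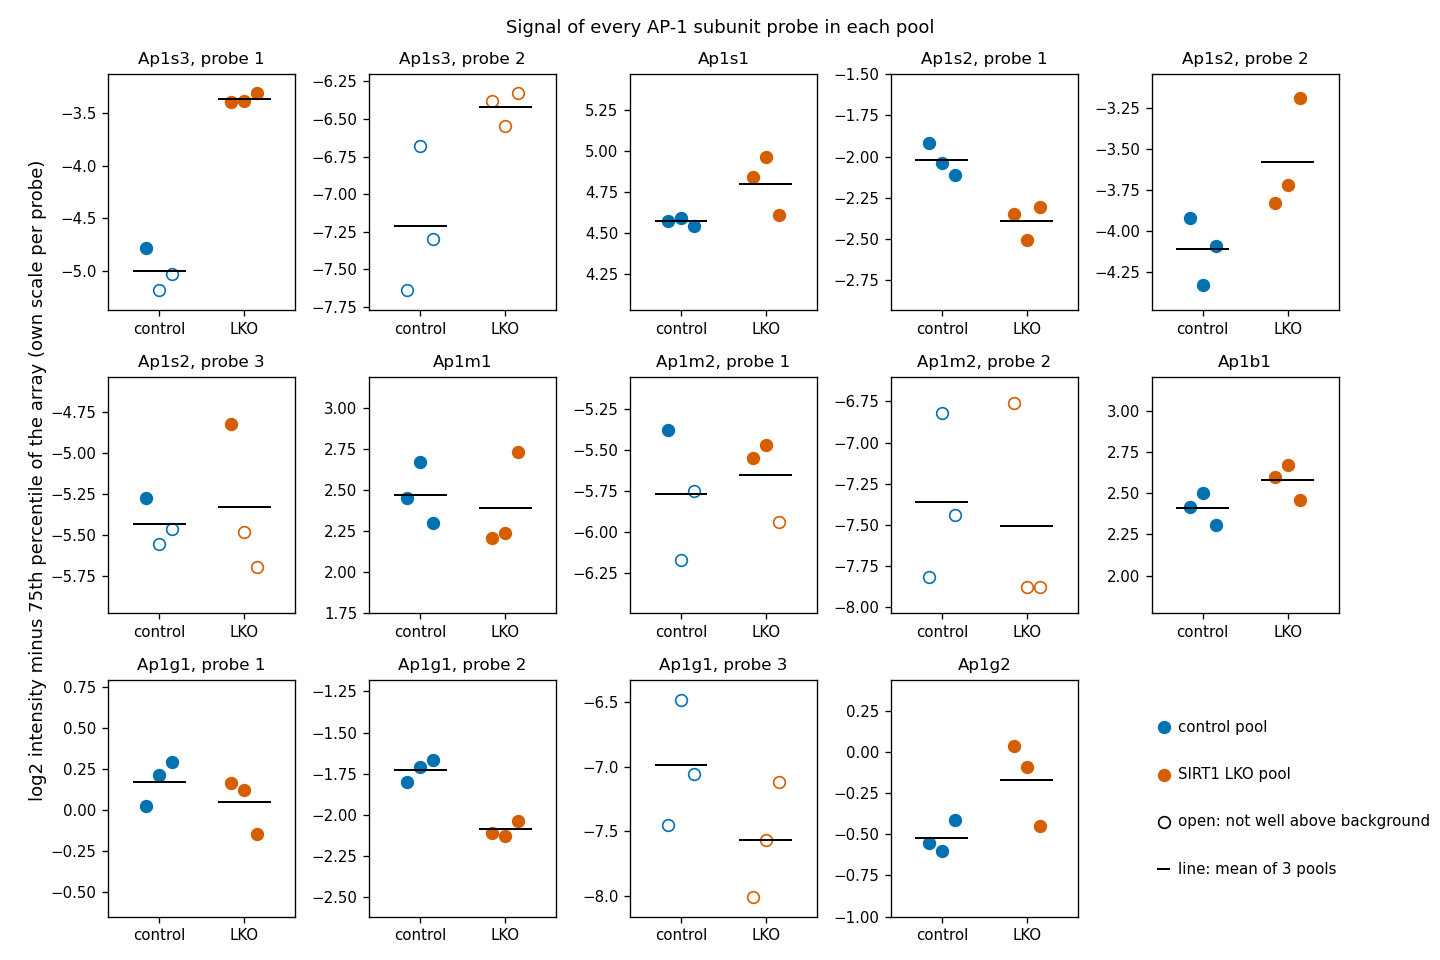
Log2 intensity relative to the array's 75th percentile (vertical axes, own scale for each probe) of all 14 AP-1 subunit probes, by genotype. Each point is a pool, open where the probe was not well above background, and the line is the mean of 3 pools. Ap1s3 probe 1 goes from a mean of -5.0 to -3.36 with no overlap, while Ap1s3 probe 2, Ap1m2 probe 2 and Ap1g1 probe 3 are open in every pool.

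The other sigma chains differed far less. Ap1s1, the broadly expressed sigma chain, stood at 4.57, 4.59 and 4.54 in the controls and at 4.84, 4.96 and 4.61 in the LKO pools (chr5:136005921-136005980, minus strand). All 3 LKO values lay above the controls, pool 3 by the least. The difference was 0.24 (SE 0.11, 95% interval -0.04 to 0.51, limma adjusted p = 0.290 over all genes tested). LKO pool 3 read 5.03 in the value table, which gave 0.38 (adjusted p = 0.0745), and without that pool the difference was 0.33 (adjusted p = 0.0772).

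Ap1s2, the X-linked sigma chain, had probes that pointed in opposite directions. Its brightest probe, probe 1 (chrX:158707538-158707597, plus strand), stood at -1.92, -2.04 and -2.11 in the controls and at -2.35, -2.51 and -2.31 in the LKO pools. The LKO values lay wholly below, with a difference of -0.37 (SE 0.10, 95% interval -0.61 to -0.12, limma adjusted p = 0.131). In the value table LKO pool 3 read -1.86, above every control, and the difference became -0.21 with overlapping groups. Without LKO pool 3 it was -0.40 (limma adjusted p = 0.0783).

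Ap1s2 probe 2 (chrX:158703706-158703765) showed the reverse. It stood at -3.92, -4.33 and -4.09 in the controls and at -3.83, -3.72 and -3.19 in the LKO pools. All 3 LKO values lay above the controls, by 0.53 on average (SE 0.20, 95% interval 0.06 to 1.0, adjusted p = 0.199 in limma fitted to every probe, where 0.0636% of probes passed). The value table gave 0.36, and leaving out LKO pool 3 gave 0.34. Probe 3 was well above background in 1 of 3 pools of each group and its means differed by 0.10. Averaging the tested probes turned the sign of the Ap1s2 difference to 0.08, so no direction is given for this gene.

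The mu chains showed no change that passed the test. Ap1m1, the mu chain of the widely expressed form of AP-1, stood at 2.45, 2.67 and 2.30 in the controls and at 2.21, 2.24 and 2.73 in the LKO pools (chr8:70780226-70780285, plus strand). LKO pool 3 was the highest of the 6 and LKO pools 1 and 2 the lowest, so the groups overlapped. The difference was -0.08 (SE 0.18, 95% interval -0.51 to 0.34, limma adjusted p = 0.822), -0.20 when the value table was used and -0.25 without LKO pool 3.

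Ap1m2, the mu chain of polarised epithelial cells, was at the limit of detection. Probe 1 (chr9:21174864-21175876, minus strand) stood at -5.38, -6.17 and -5.75 in the controls and at -5.55, -5.47 and -5.94 in the LKO pools. It was well above background in 1 of 3 control and 2 of 3 LKO pools, and its means differed by 0.12. Probe 2 (chr9:21169980-21170039) was not well above background on any array. Ap1m2 was the only member gene with no probe bright enough to be tested.

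The shared beta chain, Ap1b1, stood at 2.42, 2.50 and 2.31 in the controls and at 2.60, 2.67 and 2.46 in the LKO pools (chr11:4994610-4994669, plus strand). LKO pools 1 and 2 lay above every control and pool 3 between them. The difference was 0.16 (SE 0.10, 95% interval -0.08 to 0.41, limma adjusted p = 0.399) and 0.22 both without LKO pool 3 and with the value table. It turned to -0.07 with normexp.

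The gamma chains are the alternative large subunits that set AP-1 apart from other adaptors. The brightest Ap1g1 probe (chr8:108460746-108460805, plus strand) stood at 0.02, 0.21 and 0.29 in the controls and at 0.16, 0.12 and -0.15 in the LKO pools. These overlapped, with a difference of -0.13 (SE 0.13, 95% interval -0.43 to 0.18, limma adjusted p = 0.597), which shrank to -0.03 with the value table or without LKO pool 3 and was -0.25 with the gene's probes averaged.

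A second Ap1g1 probe (chr8:108455712-108455771) did separate the groups. It stood at -1.80, -1.71 and -1.67 in the controls and at -2.11, -2.13 and -2.04 in the LKO pools. All LKO values lay below, by -0.37 (SE 0.09, 95% interval -0.58 to -0.15), and this did not pass in limma over every probe (adjusted p = 0.112). The value table gave -0.42 and leaving out LKO pool 3 gave -0.40. The probe of Ap1g1 at chr8:108452298-108452357 was not well above background on any array.

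Ap1g2, the other gamma chain, stood at -0.55, -0.60 and -0.41 in the controls and at 0.04, -0.09 and -0.45 in the LKO pools (chr14:49965395-49965453, minus strand). LKO pools 1 and 2 lay above every control, while pool 3 fell among them. The difference was 0.35 (SE 0.15, 95% interval 0.00 to 0.70, limma adjusted p = 0.235). Using the value table gave 0.41 (adjusted p = 0.0923), and dropping LKO pool 3 gave 0.49 (adjusted p = 0.0587).

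Of the 14 probes, 9 passed the filter (well above background in all 3 pools of at least 1 group), 8 were above background on all 6 arrays and 3 on none. They covered 7 of the 8 genes. Leaving Ap1s3 aside, 0 of the 6 tested subunits passed in limma, against 24 of 16512 genes (0.145%) in the whole table, and at an unadjusted p under 0.05 there were Ap1s2 and Ap1g2, where 21.1% of all genes lay. By their values 3 were higher and 3 lower, with a median of 0.04 against 0.02 for all genes, and averaging each gene's tested probes gave 4 higher and 2 lower, with a median of 0.12. The groups did not overlap for 2 of the 6 (Ap1s1 above, Ap1s2 below), and for 28.8% of all genes tested (15.2% above, 13.6% below), so that count is near the background. None of the 6 passed with the value table, where 0.533% of genes did, or without LKO pool 3, where 2.72% did.

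**Figure D2:**
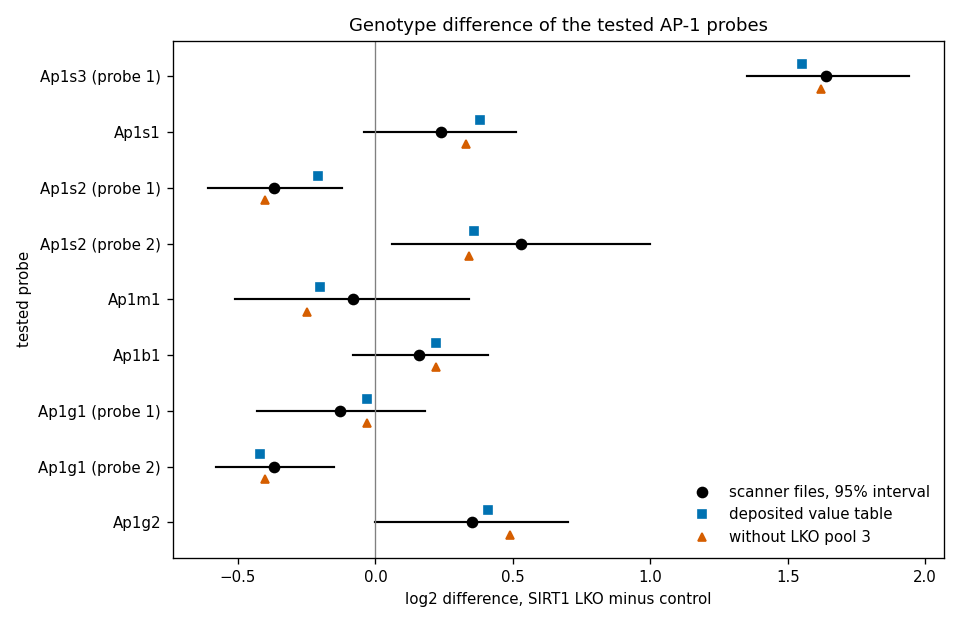
Log2 difference, SIRT1 LKO minus control (horizontal axis), of the 9 tested AP-1 probes, with the 95% interval of the limma fit as a line. Squares use the deposited value table and triangles leave out LKO pool 3. Ap1s3 stands at 1.64, the other probes between -0.37 and 0.53, and the 2 tested Ap1s2 probes on opposite sides of 0.

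The machinery that works with AP-1 was covered by a list of 54 genes for clathrin, other adaptors, recruitment and cargo, of which 53 were on the array and 50 were tested. None of the 50 passed in limma (smallest adjusted p = 0.0764). By value 28 were higher and 22 lower, with a median of 0.03. In 7 the LKO pools lay wholly above the controls and in 7 wholly below, 14 of 50, beside the 28.8% of all genes. The split was 25 to 25 after quantile normalization and 22 higher to 28 lower with normexp, and averaging each gene's probes gave 26 to 24. None passed with the value table. Without LKO pool 3, where 449 genes passed in all, 3 of the 50 did.

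Clathrin forms the cage that AP-1 recruits. Its heavy chain Cltc differed by -0.02, and its light chains by 0.19 for Clta (limma adjusted p = 0.346) and -0.19 for Cltb (adjusted p = 0.394). Clta stood at 4.86, 4.82 and 4.8 in the controls and at 5.11, 5.09 and 4.85 in the LKO pools, so LKO pool 3 fell inside the control range. The median of the 3 clathrin genes was -0.02, and 0.15 with each gene's probes averaged. The difference of Clta alone was -0.01 with normexp and 0.27 without LKO pool 3.

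The plasma membrane adaptor AP-2 had all 5 subunits at or below 0, with a median of -0.15. This held with normexp and quantile normalization, while 4 of 5 were below 0 with the value table and 3 of 5 when each gene's probes were averaged. Ap2a2, an alpha chain of AP-2, stood at 1.16, 1.29 and 1.21 in the controls and at 0.60, 0.81 and 1.02 in the LKO pools. All 3 LKO values lay below, but the difference of -0.41 (SE 0.13, limma adjusted p = 0.154) did not pass. The other alpha chain, Ap2a1, differed by -0.24 (limma adjusted p = 0.473) with overlapping groups. The beta chain Ap2b1 differed by -0.15 (adjusted p = 0.459) and by 0.30 with its probes averaged, so no direction is given for Ap2b1.

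AP-3, which routes cargo to lysosomes and related organelles, had 5 of 6 tested subunits at or below 0, with a median of -0.10. The count was 4 of 6 with normexp, with the value table or without LKO pool 3, and 3 of 6 with probes averaged. Ap3s2, a sigma chain of AP-3 and so a relative of Ap1s3, stood at -2.21, -2.18 and -2.07 in the controls and at -2.42, -2.57 and -2.40 in the LKO pools. These did not overlap, and the difference of -0.31 (SE 0.10, limma adjusted p = 0.153) did not pass. It shrank to -0.07 with the gene's probes averaged and to -0.09 with normexp. The other sigma chain of AP-3, Ap3s1, differed by 0.00 (limma adjusted p = 0.986) with overlapping groups. The large delta chain Ap3d1 differed by -0.29 (adjusted p = 0.330), or by -0.44 with probes averaged.

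AP-4 and AP-5 act at the Golgi and late endosomes without clathrin. All 7 tested subunits were above 0 with a median of 0.10, with 5 of 7 above 0 under normexp or the value table and 6 of 7 with probes averaged. Ap4e1, the epsilon chain of AP-4, stood at -1.15, -1.30 and -1.29 in the controls and at -0.43, -0.60 and -0.90 in the LKO pools. The groups did not overlap, with a difference of 0.61 (SE 0.14, limma adjusted p = 0.101). Without LKO pool 3 it was 0.73 and passed (adjusted p = 0.0478), and with the value table it was 0.58 (adjusted p = 0.0884). Averaging its probes gave 0.28 (adjusted p = 0.462). Ap4s1, the sigma chain of AP-4, differed by 0.14 (adjusted p = 0.517).

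The GGA proteins are monomeric adaptors that share cargo with AP-1. Gga3 stood at 0.68, 0.64 and 0.67 in the controls and at 0.75, 0.91 and 0.68 in the LKO pools, a difference of 0.12 (limma adjusted p = 0.507). Gga1 differed by 0.03 (adjusted p = 0.882). The 3 tested GGA genes had a median of 0.03. Gga3 was at -0.01 with its probes averaged.

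Among 17 tested recruitment and accessory genes, 12 were above 0 and 5 below (8 and 9 with normexp, 9 and 8 after quantile normalization, 7 and 10 with probes averaged), with a median of 0.06. The lowest was Heatr5b, a partner of AP-1 on endosomes, listed on the array as A230048G03Rik. It stood at -3.06, -3.24 and -3.25 in the controls and at -4.11, -4.19 and -3.71 in the LKO pools. The LKO pools lay wholly below, by -0.82 (SE 0.15, limma adjusted p = 0.0764), and without LKO pool 3 the difference was -0.96 and passed (adjusted p = 0.0391). With the value table it was -0.78 (adjusted p = 0.0709), and with normexp -0.10. Averaged over the gene's probes it was -0.12 (adjusted p = 0.642), so the low value rests on the brightest probe.

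Aak1, a kinase that phosphorylates the mu chain of AP-2, stood at -0.17, -0.10 and -0.09 in the controls and at -0.69, -0.66 and -0.31 in the LKO pools. LKO pool 3 was again the closest to the controls. The difference of -0.43 (SE 0.13, limma adjusted p = 0.140) passed only without LKO pool 3, at -0.55 (adjusted p = 0.0478), and was -0.28 with probes averaged. Arf1, the GTPase that brings AP-1 to the membrane, differed by 0.06 (adjusted p = 0.774).

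AP-1 cargo had 5 of 9 tested genes above 0 and 4 below. The median of the 9 was 0.29 against 0.02 for all genes (0.12 against 0.08 with normexp). The next value below that median was -0.02 (Vamp4). In 2 of the 9 the LKO pools lay wholly above and in 1 wholly below, beside the 28.8% of all genes without overlap. Furin, the protease of the trans-Golgi network, stood at 5.30, 5.47 and 5.30 in the controls and at 5.80, 5.56 and 5.78 in the LKO pools, wholly above, with a difference of 0.35 (SE 0.11, limma adjusted p = 0.154) that was 0.12 with normexp. Igf2r, the large mannose 6-phosphate receptor, stood at 3.06, 2.86 and 2.83 in the controls and at 3.61, 3.35 and 3.09 in the LKO pools. It also lay wholly above, by 0.43 (SE 0.15, limma adjusted p = 0.183). The copper-transporting ATPase Atp7b lay wholly below, by -0.27 (SE 0.10, limma adjusted p = 0.204). Sort1 differed by -0.36 with overlapping groups (adjusted p = 0.315).

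**Figure D3:**
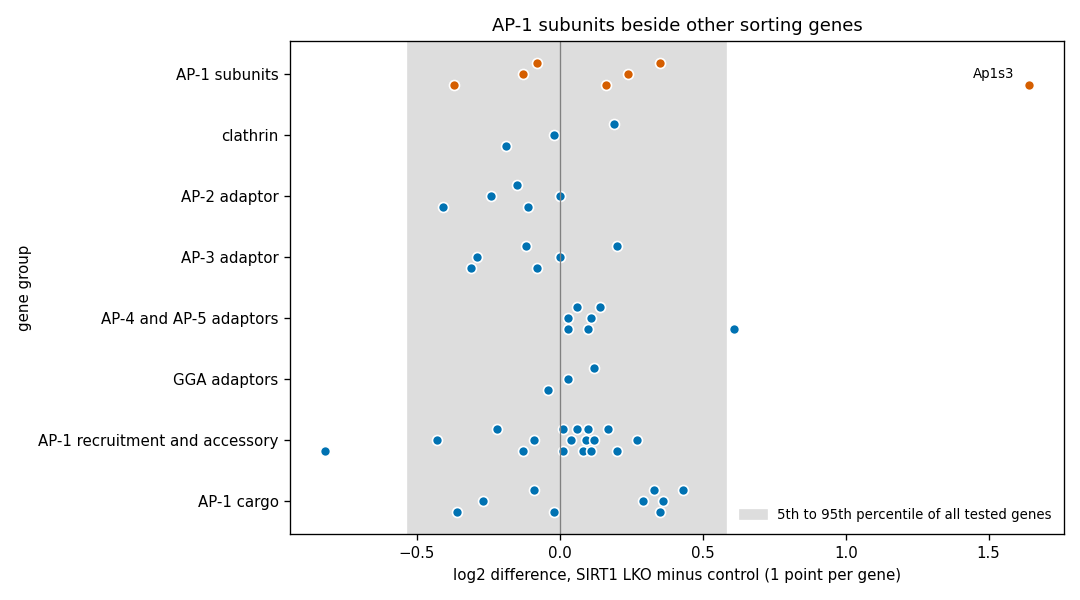
Log2 difference, SIRT1 LKO minus control (horizontal axis), of each tested gene in the AP-1 group and the 7 other sorting groups, 1 point per gene (brightest tested probe), spread vertically only for legibility. The grey band runs from the 5th to the 95th percentile of all tested genes, -0.53 to 0.58. Of these genes Ap1s3 (1.64), Ap4e1 (0.61) and Heatr5b (-0.82) lie outside it. Ap1s3 was chosen for its difference, so its place outside the band is not a test.

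The genes beside Ap1s3 on chromosome 1 were examined next, as 5 tested genes on each side in RefSeq order. Directly beside it, Wdfy1, an endosomal protein, stood at 0.72, 0.67 and 0.59 in the controls and at 0.78, 1.58 and 1.41 in the LKO pools. All LKO values were above the controls, with a difference of 0.60 (SE 0.21, limma adjusted p = 0.181). LKO pool 3 read 0.51 in the value table, which gave 0.30, and normexp gave 0.06. The 2 other Wdfy1 probes differed by 0.18 and -0.08. On the other side, Kcne4 and Scg2 lie between Ap1s3 and Acsl3 and were too dim to be tested, and Acsl3, an acyl-CoA synthetase, differed by 0.03 (limma adjusted p = 0.899).

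The third gene away from Ap1s3 moved strongly in the opposite direction. Serpine2, an inhibitor of serine proteases, was already known to be lower in these arrays, so its test adds no independent support. Its probe (chr1:80011225-80013842, minus strand, 183 kb from Ap1s3 probe 1 on mm7) stood at -1.58, -1.32 and -1.66 in the controls and at -3.43, -4.15 and -3.67 in the LKO pools. Unlike Ap1s3, it was above background in every pool. It was 4.69-fold lower in the LKO pools, a difference of -2.23 (SE 0.20, limma adjusted p = 0.0332), with no overlap. The value table gave -2.43 (adjusted p = 0.0426). Leaving out LKO pool 3 gave -2.27 (adjusted p = 0.0391). It did not pass without any one of the other 5 pools (adjusted p = 0.0766 to 0.140), nor with the slide as a random block (adjusted p = 0.219). With normexp the difference was -1.23 (SE 0.45, adjusted p = 0.692).

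Of the 10 tested neighbours of Ap1s3, Serpine2 alone passed in limma, where 0.145% of all genes did. Farsb, a subunit of phenylalanyl-tRNA synthetase, differed by -0.42 (adjusted p = 0.113) and Fam124b by -0.59 (adjusted p = 0.114), both with no overlap, as for 28.8% of all genes, and Fam124b turned to 0.17 with normexp. Cul3, a ubiquitin ligase scaffold, differed by 0.15, Mrpl44 by 0.05, Stk11ip by 0.12, Utp14b by 0.15 and Mogat1 by -0.32 (-0.04 without control pool 2). Of the 70 neighbours of the other 7 subunits taken the same way, 0 passed, with differences from -0.61 (S1pr5) to 0.51 (Ewsr1). The difference between 1 of 10 and 0 of 70 was not tested, and the 1 is Serpine2, which was already known to be lower in these arrays.

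**Figure D4:**
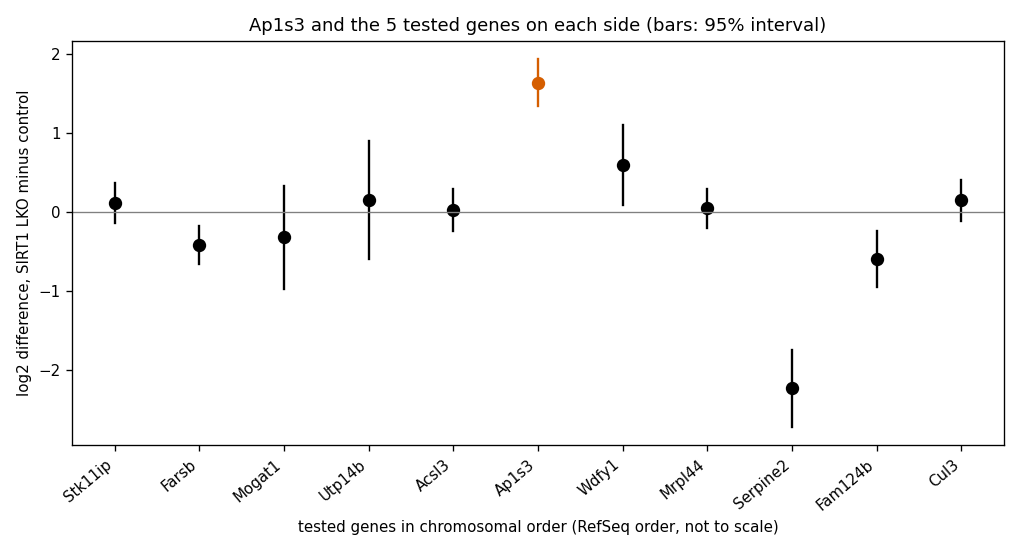
Log2 difference, SIRT1 LKO minus control (vertical axis), with 95% intervals, of Ap1s3 (orange) and the 5 tested genes on each side, in chromosomal order but not to scale. Ap1s3 at 1.64 and Serpine2 at -2.23 stand on opposite sides of 0 with Wdfy1 (0.60) and Mrpl44 (0.05) between them.

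The genes whose values followed Ap1s3 most closely over the 6 arrays were found by Pearson's r, as a description. They were Slc50a1, a sugar transporter (r = 0.9984, difference 0.61), Rabep2, an effector of the endosomal GTPase RAB5 (r = 0.9977, difference 0.31), and Lrrfip1 (r = 0.9944, difference 0.32). Next came the matrix protease Mmp7 (r = 0.9925, difference 1.33) and the kinase Lmtk2 (r = 0.9919, difference 0.45). Slc50a1 stood at 0.23, 0.13 and 0.18 in the controls and at 0.77, 0.79 and 0.82 in the LKO pools, again with tightly grouped LKO values. Mmp7, like Ap1s3, was well above background in 1 of 3 control pools and in all 3 LKO pools. Such coefficients are set mostly by the step between genotypes, since the 6 arrays fall into 2 groups. The Ap1s3 values of control pools 2 and 3 were not well above background, so the order among such genes rests partly on signal near background. Among the other tested AP-1 subunits, each read by its brightest probe, r ran from -0.868 (Ap1s2) to 0.728 (Ap1g2). The value for Ap1s2 is of probe 1 only, and its probe 2 moved the other way.

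Markers of other cells in liver were read beside Ap1s3, since the epithelial cells of the bile ducts and infiltrating cells also carry AP-1. The summed linear level of 6 cholangiocyte markers was 7.47 to 8.48 times the 75th percentile in the controls and 7.13 to 9.93 in the LKO pools. That sum was mostly Spp1, whose control mean was 2.79 on the log2 scale. The other cholangiocyte markers averaged -1.42 (Krt7) or less in the controls, so overlapping sums say little about them. Of the 6 markers, 0 passed in limma, 5 were higher in the LKO pools and 1, Sox9, was lower, with a median of 0.13. Sox9 was at -1.12 (limma adjusted p = 0.0582, or 0.0478 without LKO pool 3) and at -0.65 with the value table (adjusted p = 0.296). Epcam was at 0.70 (limma adjusted p = 0.165), at 0.91 with the value table (adjusted p = 0.0664) and at 0.89 without LKO pool 3 (adjusted p = 0.0693). Kupffer cell and macrophage markers summed to 20.1 to 35.1 and 26.1 to 28.4, and lymphocyte markers to 0.791 to 1.19 and 0.768 to 0.916. Endothelial markers summed to 6.02 to 7.46 and 5.41 to 8.81, stellate cell markers to 6.15 to 7.68 and 6.22 to 7.39, and pancreas markers, Pnlip at background on all arrays, to 0.172 to 0.243 and 0.135 to 0.207. All of these ranges overlapped, and each sum is weighted to its brightest probes. Only the adipose sum separated the genotypes, from 0.260 to 1.09 in the controls down to 0.0473 to 0.129 in the LKO pools. Of its 4 markers, 0 were well above background on all 6 arrays, and Plin1 and Lep were so on none. Cfd, the only one tested, passed the filter through the controls and was well above background in 2 of 3 LKO pools. It differed by -3.44 (limma adjusted p = 0.113), with LKO pool 3 at -6.23, so the size depends on values near background. The adipose sum moved opposite to Ap1s3 and its part in the result was not tested.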

How the data were processed

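Liver RNA pools (3 per genotype) were measured on 6 one-colour arrays. The scanner files hold spot intensity that the authors' software (Agilent Feature Extraction, version 9.5 in the submitters' processing notes, 9.5.3.1 per the file headers) had background-subtracted. Other columns used are the 0 or 1 flags deposited with each spot. The deposited value table holds linear intensity from the Rosetta Resolver error model, per the labels, and how LKO pool 3 was treated there is unstated.

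Control spots and outlier spots were left out, log2 was taken of the deposited intensity, and each array's 75th percentile was subtracted. Probes well above background in all 3 pools of a group were tested (23591), and the brightest represented its gene (16512). Names follow RefSeq (GRCm38.p6) where the accession matched (22951 of 41174 probes), and probe coordinates are mm7, from the files. Differences were fitted with limma 3.58.1 in R 4.3.3 (two-sided, Benjamini-Hochberg over all genes), and the steps were tested on simulated data. Figures used matplotlib 3.10.9.

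The members and lists were chosen with earlier results of these data known. Named genes are all members and the 2 smallest p of each sorting list. Cltc, Arf1, Ap2a1, Ap3s1, Atp7b, Sort1 and Vamp4 were added after their values were seen. Also named are the 10 tested neighbours of Ap1s3, the extremes of the other neighbours and the 5 genes most correlated with Ap1s3. Markers are named where at background, with the smallest p, or to describe a sum. Same-numbered pools did not vary together (correlations 0.00309, -0.0613 and -0.0867), so no pairing was used. Alternatives were other background corrections, scalings, filters, probe rules, blocks, variance models, the value table and leaving out each pool. Sequences of 4 of the 14 member probes are printed, and the others are not reported here.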

Additional observations from a re-analysis of the deposited data

How the results depend on the processing

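The Ap1s3 difference of 1.64 became 0.88 with normexp and lay between 1.55 and 1.75 under the other alternatives that gave a value. Apart from the value table, those use the same background-subtracted intensities. Several could not change the difference, such as another variance model or averaging the tested probes of a gene with a single tested probe. Ap1s3 had no value under the filter that asks for all 6 arrays above background, which it did not pass. None of the other subunits passed under any of the 18 alternatives. Over the whole table the count of 24 genes became 0 with normexp (1150 at an unadjusted p under 0.05), with no filter on dim probes (4778) and with the slide as a random block (1796). It became 12 after quantile normalization, 66 with the filter to all 6 arrays, 13 with outlier spots kept, 68 with an intensity trend and robust variance together, 88 with the value table and 15 with every probe on its own, an alternative added after seeing the data. Leaving out 1 pool gave 0 to 449, with 0 for each pool other than LKO pool 3 (2265 to 3010 at an unadjusted p under 0.05). The other sorting genes stayed at 0 except without LKO pool 3 (range 0 to 3). The single call among the Ap1s3 neighbours became 0 with normexp, no filter and the slide block, and ranged from 0 to 1 when a pool was left out.

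The pools share only a replicate number. With the replicate number as a block, 0 genes passed (2965 at an unadjusted p under 0.05) and 0 of the Ap1s3 neighbours did. The Ap1s3 difference was 1.64, which this block could not change because both groups hold every replicate number. The 3 pools per group and, for Ap1s3, a control signal near background limit the precision.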
